A study of Mus musculus with 42 samples.

Results

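The regions described here are the SMARCA2/4 peaks of the adult mouse hippocampus that were found in all 3 genotypes studied. They were chosen by position alone. A row of the euploid peak list was kept when it overlapped by at least 1 bp both a row of the Ts65Dn list and a row of the Ts65Dn;Brwd1+/- list, which left 243 of 22667 euploid rows (1.07%, Wilson 95% interval 0.946 to 1.21). The Ts65Dn list held 1290 rows, of which 258 (20%) touched one of these shared rows, and the Ts65Dn;Brwd1+/- list held 1873 rows, of which 252 (13.5%) did. Ts65Dn mice carry an extra copy of the distal part of chromosome 16 and of the proximal end of chromosome 17. Ts65Dn;Brwd1+/- mice carry the same extra segments and should have 1 disrupted copy of Brwd1, the repro5 allele, which brings the number of working Brwd1 copies back to that of euploid mice. All groups shared a mixed strain background, which the labels write as DBA/2J x B6EiC3Sn/J. For chromatin immunoprecipitation (ChIP-seq), male hippocampus at 6 to 8 weeks was used, with 4 libraries of immunoprecipitated DNA and 4 of input DNA for each genotype, each pooled from 2 animals. Open chromatin had been measured by ATAC-seq of sorted NeuN-positive nuclei from adult male hippocampus, with 3 libraries per genotype, and RNA in forebrain neuron cultures of embryonic day 16, also with 3 libraries per genotype.

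SMARCA2 and SMARCA4 are the alternative ATPases of the BAF complex, which uses ATP to slide or evict nucleosomes and is known in neurons for its work at promoters and enhancers. BRWD1 is a bromodomain and WD40 repeat protein that binds chromatin, and its gene lies in the segment that Ts65Dn mice carry in excess. In a ChIP-seq peak list, a row is a stretch of genome where immunoprecipitated reads exceed the local background, and its fold enrichment is the ratio of the former to the latter.

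The sequences of some of the strongest shared rows, and of 1 of the weakest (Gm10800), fall into kinds that differ by eye, and they are shown here because the strength of the shared rows is read against them. All were read from GRCm38 (mm10) on the plus strand. In the first the capitals mark exon bases of Brwd1 (chr16:96059477-96059646). In the next 5 the capitals mark bases that lie in a run of 32 bases found more than once in the assembly. They are intergenic rows at chr6:105120275-105120345, chr1:145776766-145776830 and chr14:104336961-104337030, a row near Gm14897 (chrX:114858813-114858906) and a row at Gm10800 (chr2:98667058-98667180). The last is an intergenic row at chr15:37183318-37183598, in which no base was repeat-masked and every run of 32 bases was found once.
Brwd1: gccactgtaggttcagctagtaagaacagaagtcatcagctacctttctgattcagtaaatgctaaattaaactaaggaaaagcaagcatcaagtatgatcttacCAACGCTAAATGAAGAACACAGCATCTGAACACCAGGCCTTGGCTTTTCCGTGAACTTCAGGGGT
Chromosome 6 row: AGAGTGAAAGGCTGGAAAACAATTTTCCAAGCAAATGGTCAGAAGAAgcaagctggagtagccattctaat
Chromosome 1 row: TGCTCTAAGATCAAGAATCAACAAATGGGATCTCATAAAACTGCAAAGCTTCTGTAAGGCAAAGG
Chromosome 14 row: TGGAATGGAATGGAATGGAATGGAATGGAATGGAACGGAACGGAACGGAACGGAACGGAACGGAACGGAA
Gm14897 row: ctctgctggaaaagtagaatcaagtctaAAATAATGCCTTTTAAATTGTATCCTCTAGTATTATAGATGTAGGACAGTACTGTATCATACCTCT
Gm10800 row: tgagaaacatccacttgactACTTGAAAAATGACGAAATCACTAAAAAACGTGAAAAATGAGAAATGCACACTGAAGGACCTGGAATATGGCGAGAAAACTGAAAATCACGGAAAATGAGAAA
Chromosome 15 row: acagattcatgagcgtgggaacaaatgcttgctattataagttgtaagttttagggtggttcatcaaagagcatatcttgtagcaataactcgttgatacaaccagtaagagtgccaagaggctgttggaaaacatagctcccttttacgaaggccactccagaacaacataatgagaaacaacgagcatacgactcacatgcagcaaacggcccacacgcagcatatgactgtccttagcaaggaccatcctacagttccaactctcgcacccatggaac

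Each list was 1 pooled sample, so no replicate error stands behind a fold enrichment, the depth is unknown, and the comparisons of shared with other rows carry no test. Intervals of shares cover counting error only. The median fold enrichment of the 243 shared rows was 4.68 in the euploid list (range 1.53 to 20.4), 3.99 in the Ts65Dn list (1.49 to 15.9) and 4.16 in the Ts65Dn;Brwd1+/- list (1.78 to 17.4), against 3.73 for the 22424 euploid rows that were not shared. With a q-value under 0.05 required in every list, the medians of the trisomic lists were 6.55 and 6.60. The rule that chose the rows used these lists, so the values are a description. The 10 strongest rows of each list were all shared or touched a shared row. Among the 50 strongest, 36 euploid rows were shared, and 43 rows of the Ts65Dn list and 43 of the Ts65Dn;Brwd1+/- list touched a shared row. The share of euploid rows found in all lists did not rise evenly with fold enrichment. It was 3.04% under 3-fold (62 of 2041), 0.265% from 3 to 4 (34 of 12840), 1.18% from 4 to 6 (90 of 7646), 35.7% from 6 to 10 (46 of 129) and 100% at 10 and above (11 of 11). The weakest stratum thus held a larger share of shared rows than the 2 strata above it.

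Ranked by fold enrichment over all shared rows, the lists had a Spearman rho across the 243 rows of 0.82 between euploid and Ts65Dn, 0.81 between euploid and Ts65Dn;Brwd1+/- and 0.85 between the 2 trisomic lists. Rows are not independent replicates, and the rule that chose them used these lists. A row was in a list whatever its q-value, which reached 1 among shared rows of the Ts65Dn list. A q-value under 0.05 was reached by 235 of the shared rows in the euploid list, 142 in the Ts65Dn list and 192 in the Ts65Dn;Brwd1+/- list, and by 119 (49.0%) in all 3, taking in each list the overlapping row of highest fold enrichment. An overlap of at least 50% of the euploid row with each list would have left 122 shared rows, and a length of at least 100 bp in every list would have left 42. The shortest overlap that sufficed was 1 bp, in an intergenic row on chromosome 18, followed by 8 bp at the lincRNA A230028O05Rik and 9 bp at Tmod1, which encodes an actin filament capping protein (9 bp also at Grik3 and Nfix). Just outside, the row at chr5:142820744-142820874 overlapped a Ts65Dn row and missed a Ts65Dn;Brwd1+/- row by 1 bp, and rows at chr10:127511636-127511957 and at the promoter of B3galt5 missed 1 list by 3 bp each.

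For description, and after their values had been seen, the shared rows were put into 4 groups. The narrow rows were those under 100 bp in all 3 lists with a euploid fold enrichment of at least 4 (55 rows). Rows at loci that collect reads were those on unplaced scaffolds, the mitochondrial genome or chromosome Y, within the first 3.1 Mb of a chromosome, or at or within 10 kb of genes listed as sites of repeat reads such as Gm10800, Gm21738 and Sfi1 (45 rows). Gm42418 was added to that list once its rows had been seen. The 10 rows of Ss18l1 formed a group of their own, and 133 rows remained. Within these groups the ranks were less alike than over all 243 rows. The Spearman rho was 0.64, 0.78 and 0.68 in the narrow rows, for euploid with Ts65Dn, euploid with Ts65Dn;Brwd1+/- and the trisomic pair in turn. In the same order it was 0.70, 0.69 and 0.75 in the read-collecting rows, 0.42, 0.36 and 0.36 in the remaining rows and 0.27, -0.19 and 0.30 in the 10 Ss18l1 rows.

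**Figure D1:**
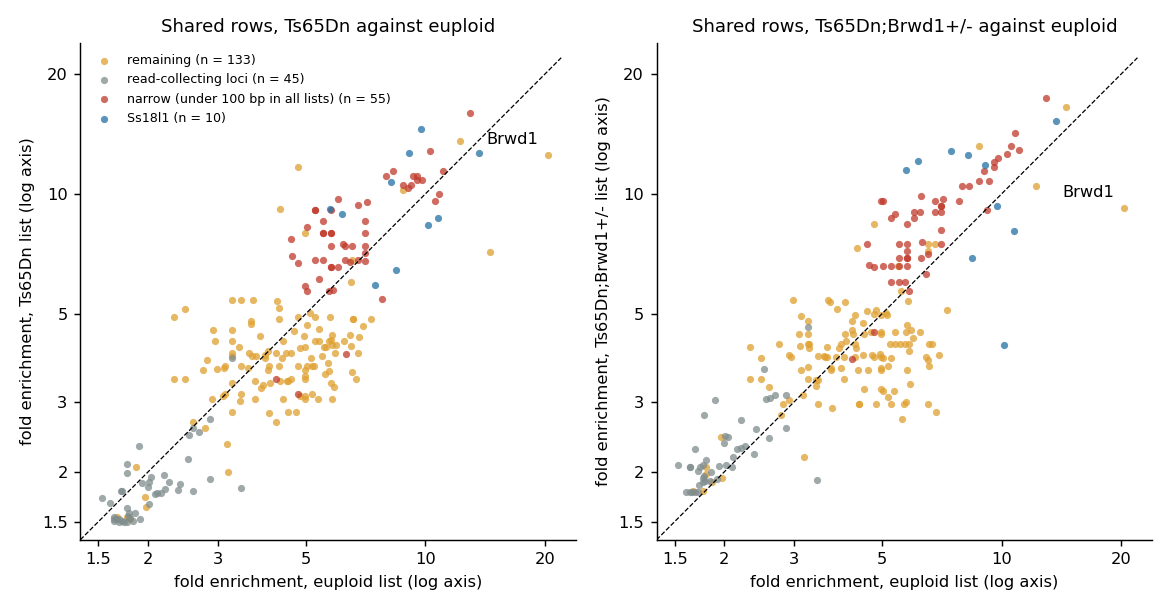
Fold enrichment of each of the 243 shared rows in the Ts65Dn list (left) and the Ts65Dn;Brwd1+/- list (right) against the euploid list, on log axes, with one point per row, coloured by group, and equality dashed. Rows at read-collecting loci lie at the lower left, narrow rows lie mostly above the line, and the Brwd1 row lies below it in both panels.

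The strongest euploid row of all lay on Brwd1 itself. Its fold enrichment was 20.4 in the euploid list, 12.5 in the Ts65Dn list and 9.21 in the Ts65Dn;Brwd1+/- list, where it ranked 1, 7 and 36. It was highest in euploid and lowest in the genotype with a disrupted Brwd1 copy, in lists that have no replicate. The row measured 170, 161 and 168 bp and overlapped no ATAC row of any genotype. It covered most of exon 10 of Brwd1 (chr16:96059582-96059652, 71 bp, transcript Brwd1-201), of which 65 bases lie in the euploid row, and ran into the neighbouring intron. The primer pair that the study lists for typing the repro5 allele spans 185 bp here (chr16:96059474-96059658). The ends of the euploid row lay 3 and 12 bp inside that product, those of the Ts65Dn row 18 and 6 bp, and those of the Ts65Dn;Brwd1+/- row 11 and 6 bp. Whether DNA of such a product took part in the row was not tested.

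Ss18l1 encodes CREST, a calcium-responsive subunit of the neuronal form of the BAF complex, and it held 10 shared rows, the most of any gene. There was 1 row on each of exons 1 to 10 of its 11 exons in all 3 lists. The fold enrichment over these exons ran from 5.74 to 13.7 in euploid, from 5.89 to 14.5 in Ts65Dn and from 4.16 to 15.2 in Ts65Dn;Brwd1+/-, with medians of 8.76, 9.03 and 11.7. Exon 4 was highest in the euploid list (13.7) and in the Ts65Dn;Brwd1+/- list (15.2), and exon 9 in the Ts65Dn list (14.5). The rows followed the exons closely. On exons 2 to 9 every row covered the whole exon and ended between 6 and 45 bp beyond it on either side. On exon 4, which is 145 bp long, the rows measured 222, 205 and 187 bp.

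No row of any genotype lay on the last exon of Ss18l1, at 2870 bp the longest. The euploid list had 2 further rows in the gene, both off the exons, and the trisomic lists had none. Of the 10 shared rows, 1 overlapped an ATAC row, that on exon 1, with an ATAC fold enrichment of 4.07, 5.08 and 3.96 in the ATAC lists of euploid, Ts65Dn and Ts65Dn;Brwd1+/- mice. Exon-shaped rows, with both ends within 50 bp of the ends of 1 exon, made up 18 of the 243 shared rows (7.41%) and 694 of the 22424 others (3.09%). Ss18l1 had 9 of them in the euploid list, Gm10800 had 4, and no other gene more than 3. Of the 18 shared ones, Ss18l1 held 9, and the read-collecting loci Gm21738 and Gm10800 held 3 and 2. Every run of 32 bases in the 10 rows was found once in the assembly.

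**Figure D2:**
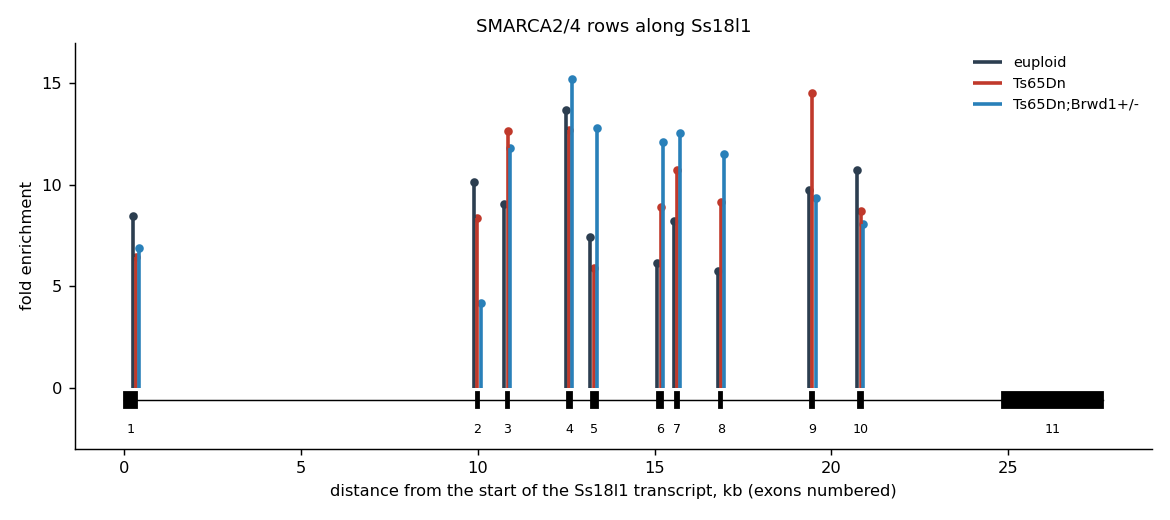
Fold enrichment (vertical axis) of the SMARCA2/4 rows on the exons of Ss18l1 in the 3 lists, by distance from the transcript start in kb, with exons drawn as numbered boxes and the lines of the 3 lists moved slightly apart. Each of exons 1 to 10 carries a row in every list, and exon 11 carries none.

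The 55 narrow rows had median fold enrichments of 6.28 in the euploid list, 7.97 in that of Ts65Dn and 8.70 in that of Ts65Dn;Brwd1+/-. In contrast to the other shared rows, most were higher in both trisomic lists than in the euploid list (44 of 55, against 38 of the 133 remaining rows). Their median length was 60, 56 and 56 bp. Both ends lay within 20 bp of the euploid ends in both other lists in 52 of 55. Length in all lists was part of what defined this group, as was a euploid fold enrichment of at least 4, so neither the shortness and close ends nor the strength in the euploid list is a result.

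Features not used to define the narrow rows set them apart as well. None overlapped a euploid ATAC row (0 of 55, upper limit 6.53%), against 22.3% of 3298 euploid rows that were not shared and met the same limits of width and strength in the euploid list. Those 3298 rows were weaker and wider, with euploid medians of 4.27-fold and 70 bp against 6.28-fold and 60 bp. At least 90% of the bases were repeat-masked in 45 of 55 (81.8%, 69.7 to 89.8), against 1.09% of the 3298. Fewer than 50% of their 32-base runs were unique in 37 of 55 (67.3%), against 0.606%. Their median GC content was 39.4%, against 56.2%. In region they were mostly intergenic (32) or in gene bodies (13), and 2 lay at a proximal promoter. The strongest was the chromosome 6 row printed above, which is wholly repeat-masked. It had fold enrichments of 12.9, 15.9 and 17.4 in euploid, Ts65Dn and Ts65Dn;Brwd1+/-. The most frequent of its 32-base runs was present 13624 times, although 60% of its runs were found once. The chromosome 1 row (10.3, 12.8 and 12.6) held no unique run of 32 bases. The chromosome 14 row (10.8, 9.97 and 14.3) is a string of GGAAT and GGAAC units, although 69.2% of its 32-base runs were found once.

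Narrow rows outside masked repeats were few. Of the 55, 10 were masked over less than 90% of their bases. The row near Gm14897 had no masked base and reached 11.1, 11.4 and 12.9, with 44.4% of its 32-base runs unique, and a second shared row lay in the same gene. A row in Papss2, which encodes an enzyme that makes the sulfate donor PAPS, was masked over 89.5% (10.6, 9.57 and 13.2). Named after their values were seen, rows free of masked bases in which every 32-base run was found once were those in Me3, encoding a mitochondrial malic enzyme (5.02, 8.26 and 9.597), and near Sfpq, encoding an RNA-binding splicing factor (5.28, 9.11 and 6.00). The Me3 row was 56 bp long in the euploid list, the shortest length there, which 8 shared rows had. Among them were a wholly masked row in Naaladl2 (5.02, 5.70 and 6.60) and, outside the narrow group, the one at A230028O05Rik (4.05, 3.35 and 4.26). By the lowest of their 3 fold enrichments, the 10 highest rows also took in wholly masked intergenic rows at chr13:14207217-14207280 (9.55, 10.8 and 11.996), at chr8:82605122-82605187 (9.55, 11.1 and 11.7) and on chromosome 18 (9.80, 10.8 and 12.3), together with Ss18l1 exon 4 and the unmasked chromosome 15 row.

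**Figure D3:**
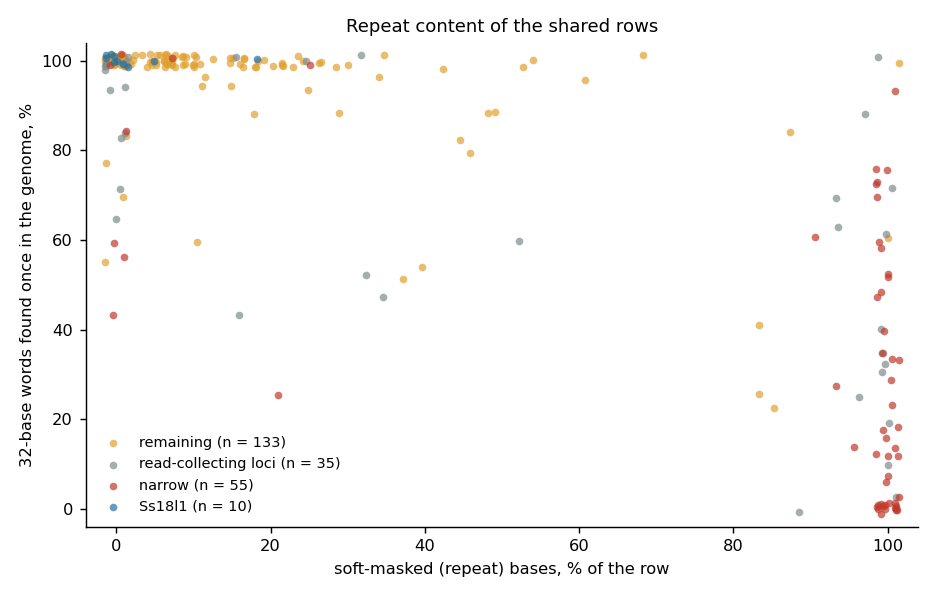
Share of repeat-masked bases (horizontal axis, %) and share of 32-base runs found once in the assembly (vertical axis, %) for the 233 shared rows on assembled chromosomes, one point per row, moved at random by up to 1.5 percentage points. Most narrow rows stand at the right edge, fully masked, and the 10 Ss18l1 rows stand at the upper left, of which 2 are partly masked.

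Over all 233 shared rows with a sequence, 61 (26.2%, 21.0 to 32.2) were masked over at least 90%, against 0.661% of rows not shared, and 68 (29.2%) had no masked base, against 68.3%. Fewer than 50% of 32-base runs were unique in 52 rows (22.3%), against 0.366%. The 10 shared rows on unplaced scaffolds were left out of these shares. The authors kept uniquely mapped reads. The part of mapping in these rows was not tested.

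The 45 rows at read-collecting loci were weak, with median fold enrichments of 1.91, 1.79 and 2.08 in euploid, Ts65Dn and Ts65Dn;Brwd1+/-, and made up most of the stratum under 3-fold. Of the 4 groups they overlapped the euploid ATAC list most often. A euploid ATAC row overlapped 36 of 45 (80%, 66.2 to 89.1), and the ATAC fold enrichment there ran from 1.73 to 14.8. By comparison with the euploid list, 40 of 45 were higher in the Ts65Dn;Brwd1+/- list and 8 of 45 in the Ts65Dn list. They often stood in runs. Of the 6 runs of 3 or more shared rows less than 10 kb apart, 5 were of this kind, with 8 rows on the mitochondrial genome (euploid fold enrichment 1.64 to 2.26), 7 at Gm10800 and Gm10801 (1.60 to 1.79), 5 at Gm21738 (1.77 to 2.60), 5 at Gm42418 (1.80 to 3.43) and 3 at the start of chromosome 18 (2.54 to 2.87). The sixth run was Ss18l1. In all, 62 of the 243 rows (25.5%, 20.4 to 31.3) lay within 10 kb of another shared row, 38 of them in these runs. That share was 15.2% without the read-collecting loci and 8.53% once rows less than 1 kb apart were joined.

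Sequence names outside chromosomes 1 to 19, X and Y held 18 shared rows (7.41%, 4.74 to 11.4), against 0.165% of euploid rows not shared. Such names held 2.87% of all rows of the Ts65Dn list and 11.3% of those of the Ts65Dn;Brwd1+/- list. The first 3.1 Mb of chromosomes held 8 of the 243 shared rows and 11 of the 22424 others. The shared rows of lowest euploid fold enrichment belonged here, a scaffold row with 1.53, 1.72 and 2.08, a row at Gm10801 with 1.60, 1.67 and 1.78, and the Gm10800 row printed above with 1.64, 1.54 and 1.78, which a pair of mitochondrial rows equalled in the euploid list. The Gm10800 row has 83.7% of its bases in capitals, that is, in runs of 32 found elsewhere too.

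**Figure D4:**
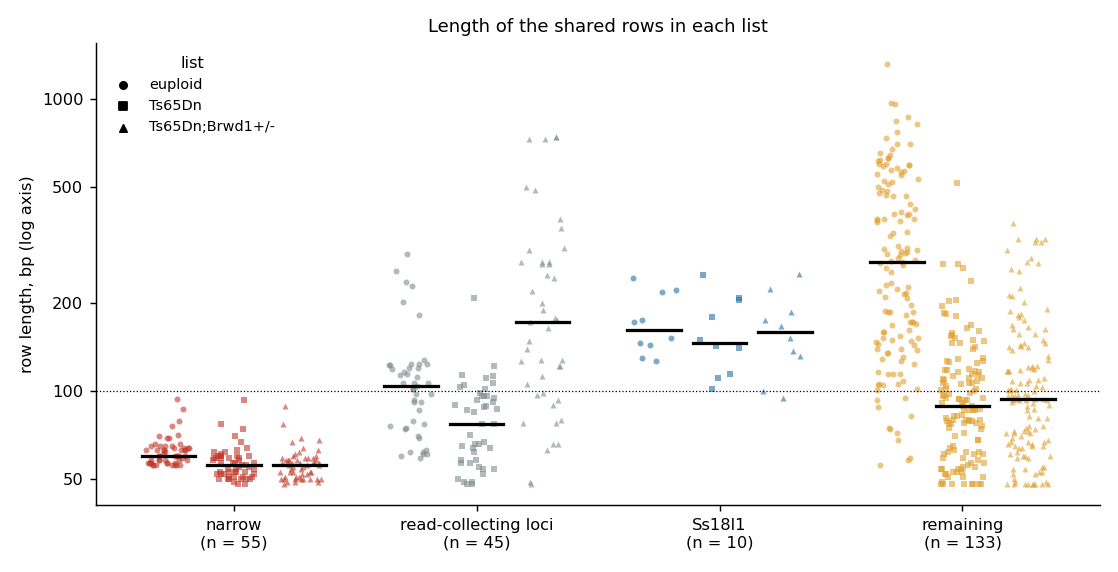
Length in bp (log axis) of every shared row in each of the 3 lists, by group, with points moved sideways at random, with black bars at the medians and a dotted line at 100 bp. The remaining rows are longer in the euploid list (median 276 bp) than in the trisomic lists (89 and 94 bp), while the Ss18l1 rows are of similar length in all 3. Over all rows of the lists the medians are 93, 62 and 68 bp.

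The 133 remaining rows had median fold enrichments of 4.37 in the euploid list, 3.87 in that of Ts65Dn and 3.92 in that of Ts65Dn;Brwd1+/-. Of the 133, 2 were masked over at least 90% of their bases, and 108 (81.2%) had only unique 32-base runs, against 96.7% of all rows not shared. They were longer in the euploid list, with a median of 276 bp against 89 and 94 bp in the trisomic lists, and 101 of 133 were narrower in both. Over all rows of the lists the medians were 93, 62 and 68 bp. The overlap rule favours long euploid rows, and narrow rows had been taken out by length, so these lengths are only a description. A q-value under 0.05 in all 3 lists was reached by 38 of 133. It was reached by 53 of 55 narrow rows, 10 of 10 Ss18l1 rows and 18 of 45 read-collecting rows. Among the widest shared rows was a pair at the lincRNA 2410080I02Rik, of 1321 bp, with fold enrichments of 6.96, 4.64 and 3.92, and of 968 bp, with 6.70, 3.42 and 4.20. A few were strong in every list. The unmasked chromosome 15 row printed above reached 12.2, 13.6 and 10.5 over 281, 273 and 286 bp, and a row at chr5:40043706-40043961, likewise unmasked, reached 8.79, 10.3 and 13.2. Both were intergenic and overlapped no ATAC row.

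Open chromatin covered the remaining rows more often than the other euploid rows. A euploid ATAC row overlapped 64 of 133 (48.1%, 39.8 to 56.5), against 26.9% of 19047 comparable rows not shared. Comparable rows lay outside read-collecting loci and were not both under 100 bp and at least 4-fold in the euploid list. Some of the 133, such as the Ybx1 row, were both. In the Ts65Dn and Ts65Dn;Brwd1+/- ATAC lists the shares were 72.9% and 67.7%, against 44.6% and 44.0% of all rows not shared. Those lists held 29195 and 30244 rows, against 15521 in the euploid ATAC list. Within strata of euploid fold enrichment, the euploid ATAC share of the remaining rows was 73.7% against 28.6% under 3-fold and 56.2% against 23.9% from 3 to 4. It was 46.2% against 34.5% from 4 to 6 and 14.3% (2 of 14) against 48.6% from 6 to 10. The direction was thus turned in the last of these strata. The remaining rows were also longer, and the part of length in their overlap was not tested.

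Over all 243 shared rows, 101 overlapped a euploid ATAC row (41.6%, 35.5 to 47.8), against 26.3% of rows not shared. In the Ts65Dn and Ts65Dn;Brwd1+/- ATAC lists the shares were 54.3% against 44.6% and 51.03% against 44.0%. The share fell with strength among the shared rows, from 79.0% under 3-fold and 55.9% from 3 to 4 through 33.3% from 4 to 6 to 6.52% (3 of 46) from 6 to 10 and 0 of 11 at 10 and above (upper limit 25.9%). Among rows not shared it was 30.2, 23.9, 29.2 and 44.6% in the same order, with no row at 10 and above. The excess over rows not shared depended on which rows were counted. With a q-value under 0.05 required in all lists the share was 27.5%, against 27.2% of rows not shared. Without the read-collecting loci it was 32.8% against 26.2%. In the strata under 10-fold of those same rows it was 34.8% (65 of 187), against 32.02% of rows not shared weighted to these strata. With ATAC rows of at least 4-fold alone, the shares were 21.8% and 14.6%. No ATAC list of any genotype touched 100 of the shared rows (41.2%), against 49.6% of rows not shared. ATAC-seq was made from neuronal nuclei and ChIP-seq from hippocampal tissue, so the lists of the 2 assays need not come from the same cells.

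**Figure D5:**
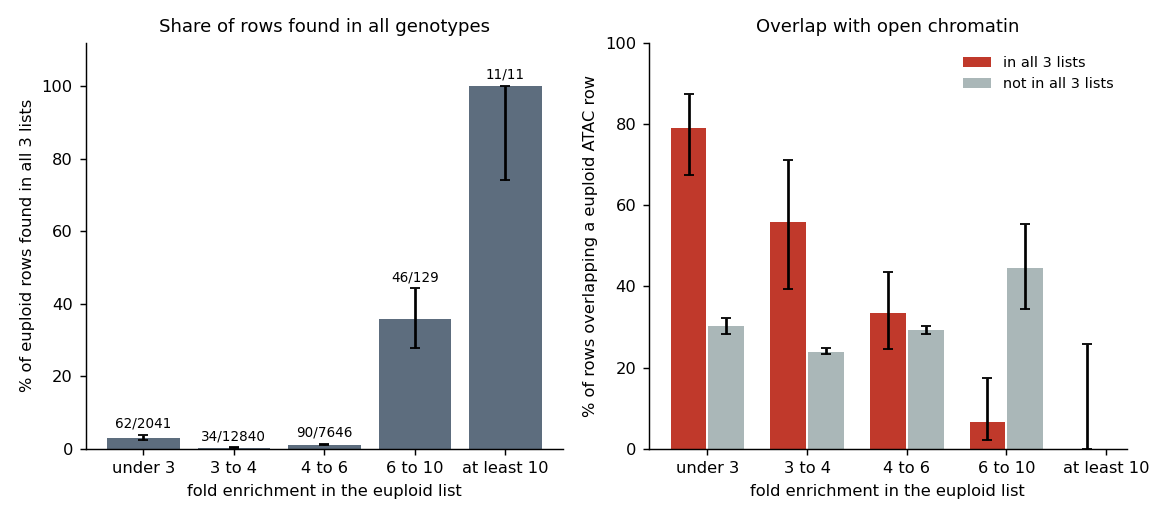
Share of euploid rows found in all 3 lists (left, %) and share overlapping a euploid ATAC row (right, %) by stratum of euploid fold enrichment, with Wilson 95% intervals. Every euploid row of at least 10-fold is shared, and the ATAC share of shared rows falls from 79.0% under 3-fold to 0 of 11 at 10 and above.

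By the region that the authors assigned, 24 shared rows (9.88%, 6.73 to 14.3) lay at a proximal promoter, against 25.1% of rows not shared, and 92 (37.9%) in any promoter class, against 60.3%. Intergenic rows were 84 (34.6%) against 12.6%, and gene body rows were 65 (26.7%) against 27.1%. The remaining rows alone had 45.9% in a promoter class, against 59.9% of comparable rows. The promoter share of the shared rows was thus the smaller, in the whole set and in this group. The proximal share rested on how rows are counted. It was 5.74% with an overlap of at least 50%, 6.67% with a q-value under 0.05 in all lists and 2.38% among rows of at least 100 bp, whereas it was 28.7% once rows less than 1 kb apart were joined and 35.4% for row centres within 1 kb of an annotated transcript start. Over rows on annotated sequences alone, that last share was 36.1% (86 of 238), against 49.8% of rows not shared.

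The proximal promoter rows of protein-coding genes were of moderate strength. Spaca6, encoding a sperm membrane protein needed for fertilisation, was the strongest of them in euploid, with 5.92, 3.99 and 4.56. Camk2b, a calcium-dependent kinase subunit of synapses, followed with 5.12, 5.03 and 5.00 and overlapped an ATAC row in every genotype. Higher in both trisomic lists were Ybx1, a DNA- and RNA-binding protein (4.77, 11.7 and 8.40), and Pfn1, the actin-binding profilin (4.31, 9.14 and 7.33). Of the Ybx1 row, 56.2% of 32-base runs were unique, and of the Pfn1 row all were. Ctsa, a lysosomal carboxypeptidase (4.97, 3.61 and 3.599), Klhl2, an actin-binding adaptor of ubiquitin ligases (4.68, 4.53 and 4.50), Dbndd2 (3.94, 3.94 and 3.65), Zfp324 (4.20, 3.42 and 3.84) and Pagr1a, a partner of histone methyltransferase complexes (3.57, 3.65 and 3.92), ranged less between the lists than Ybx1 and Pfn1 did. Pdlim7, an actin-associated PDZ and LIM protein, was at 3.63, 4.78 and 3.90. The q-values of Spaca6, Ctsa, Zfp324, Dbndd2 and Pagr1a were above 0.05 in the Ts65Dn list, and those of Ctsa, Zfp324 and Pdlim7 in the Ts65Dn;Brwd1+/- list.

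In the triplicated segments, chromosome 16 from Mrpl39 to its end and chromosome 17 from its start to Pde10a, there were 7 shared rows (2.88%, 1.40 to 5.83), against 1.08% of euploid rows not shared, 2.02% of all rows of the Ts65Dn list and 2.72% of all rows of the Ts65Dn;Brwd1+/- list. They included Brwd1 and a row at chr17:4626286-4626563 made of short repeat units, which had fold enrichments of 14.6, 7.13 and 16.5, so neither of the 2 strongest was raised in both trisomic lists. The other rows lay in Kcnj6, encoding a potassium channel (4.30, 3.39 and 4.10), near Pde10a, a cyclic nucleotide phosphodiesterase (3.89, 3.32 and 4.09), near Scaf8 (3.26, 4.55 and 3.42), near Pisd-ps2 (3.26, 3.87 and 4.62) and between genes at chr16:90709853-90709999 (4.20, 2.68 and 4.56). Scaf8 and Pisd-ps2 were higher in both trisomic lists, and the Pisd-ps2 row is in the read-collecting group. In the Ts65Dn list the q-values of these rows were above 0.05 except for Scaf8, and in the Ts65Dn;Brwd1+/- list that of Scaf8 was.

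Few genes of the lists looked up held a shared row. Since 1.07% of all euploid rows were shared, a list with about 100 rows or fewer would hold at most about 1 at that share, and a count of 0 in such a list is no result about its genes. Of the BAF complex genes only Ss18l1 held shared rows, and 18 held 95 euploid rows that were not shared. Among markers of cell types, Mbp, the myelin protein of oligodendrocytes, held 1 (3.75, 3.92 and 2.90), and neuronal, astrocyte, microglial, endothelial and erythroid markers held none. Rows not shared lay at 6 neuronal marker genes (65 rows) and at none of the microglial or erythroid markers. Malat1, an abundant nuclear RNA, held 1 shared row (3.596, 3.99 and 3.90). Activity-regulated genes, replication-dependent histones and translation genes held no shared row and 63, 30 and 107 others.

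Short motifs were counted in 300 bp windows around the row centres, on both strands, as a description. A match is no evidence of binding. NF-Y (CCAAT) occurred in 26 of 55 windows of narrow rows (47.3%), against 26.8% of windows of narrow rows not shared, and the GC box (GGGCGG) in 3 of 55 (5.45%), against 28.5%. AP-1 (TGANTCA) occurred in none of the 55 (upper limit 6.53%), against 11.8%. In windows of the remaining rows, AP-1 occurred in 15.8% against 11.95% of comparable rows, the GC box in 26.3% against 26.98% and the E-box CAGCTG in 24.8% against 20.4%, with intervals that overlap.

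The RNA of cultured neurons was set beside the promoter rows. The cultures are embryonic and the rows come from adult tissue. Of the 23 genes with a shared row at the proximal promoter, 16 passed the filter on low counts. Their median level in euploid cultures was 0.603 RPKM (reads per kilobase of exon, scaled to library size) over all 23, against 7.13 for 4166 genes with a proximal promoter row that was not shared. The 23 include the read-collecting loci Gm10800, Gm10801, Gm21738 and Sfi1, and non-coding genes such as Mir7687 and Junos. The part of gene kind in these levels was not tested. Among genes that passed the filter, the medians were 3.40 for the 16, 8.17 for 3810 genes with a proximal promoter row that was not shared and 2.95 for 11646 genes with no euploid row at the proximal promoter or in the next promoter class (Promoter1k). Levels ranged from 0 to 121, the highest being Pfn1. In the quasi-likelihood test of edgeR with Benjamini-Hochberg adjustment over 17173 genes, 46.7% of all genes passed between Ts65Dn and euploid (25.6% higher and 21.1% lower in Ts65Dn). Of the 16 genes, 8 passed, 6 of them higher. Between Ts65Dn;Brwd1+/- and euploid, 29.2% of all genes passed (14% higher and 15.2% lower), and 5 of the 16 did, 2 of them higher. Between Ts65Dn;Brwd1+/- and Ts65Dn, 58.1% of all genes passed (27.6% higher and 30.5% lower), and 13 of the 16 did, 4 of them higher. Without euploid replicate 1 or 2 the first count was 5, and without euploid replicate 3 or either of Ts65Dn;Brwd1+/- replicates 1 and 3 the second was 3. The third ran from 9 to 13 when 1 library was left out, with 9 without Ts65Dn;Brwd1+/- replicate 1. Comparisons that share a genotype share its 3 libraries.

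A pair of genes bears on every contrast of these cultures with Ts65Dn;Brwd1+/-. Brwd1 stood at 89.4 ± 3.66 CPM (counts scaled to library size) in euploid (SD, n = 3), 127 ± 2.13 in Ts65Dn and 139 ± 12.3 in the libraries labelled Ts65Dn;Brwd1+/-, and was not called different between the last 2 (log2 difference 0.13, SE 0.08, edgeR adjusted p = 0.186). A read count cannot tell the repro5 allele from the normal one. Xist, the RNA of the inactive X of females, lay between 0.526 and 1.12 CPM in the 6 euploid and Ts65Dn libraries and between 1409 and 1982 in the 3 libraries labelled Ts65Dn;Brwd1+/-, although all were described as pooled from both sexes. Sex and genotype cannot be told apart in those contrasts.

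Among the promoter genes, Ctsa stood at 129, 140 and 141 CPM in the 3 euploid libraries, at 226, 244 and 246 in Ts65Dn and, in those labelled Ts65Dn;Brwd1+/-, at 140, 143 and 149. The Ts65Dn libraries did not overlap the others, and Ctsa was higher in Ts65Dn than in euploid (log2 difference 0.81, SE 0.07, edgeR adjusted p = 2.85e-05). Dbndd2 was at 14.9, 13.8 and 13.7 in euploid, at 27.7, 27.02 and 26.6 in Ts65Dn and at 18.2, 18.04 and 18.1 in the third genotype. Its groups stood apart in every pair, with log2 differences to euploid of 0.94 (SE 0.07, edgeR adjusted p = 9.43e-06) in Ts65Dn and 0.36 (SE 0.07, adjusted p = 0.00414) in Ts65Dn;Brwd1+/-. Camk2b was at 487, 543 and 440 in euploid and at 276, 249 and 83.0 in Ts65Dn, lower by edgeR (log2 difference -1.27, SE 0.34, adjusted p = 0.0124), with 1 Ts65Dn library far below the other two.

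Ybx1 was at 276, 328 and 268 in euploid, at 232, 265 and 259 in Ts65Dn and, in those labelled Ts65Dn;Brwd1+/-, at 445, 358 and 384. The 3 groups did not overlap. The difference to euploid was called in the last group alone, higher by 0.45 on the log2 scale (SE 0.11, edgeR adjusted p = 0.0130), and was not called in Ts65Dn (-0.20, adjusted p = 0.157). Pfn1 passed in no contrast (edgeR adjusted p = 0.321, 0.845 and 0.436). Klhl2, Pdlim7, Spaca6 and Ankrd40 passed between Ts65Dn and euploid, with log2 differences of -0.71, 0.60, 0.38 and 0.36. Sfi1 and A230028O05Rik were lower in Ts65Dn;Brwd1+/- than in euploid, with log2 differences of -0.51 and -1.11. Sfi1 is one of the read-collecting loci, so its count is uncertain. The last of the 5 genes, outside the naming rule, was Junos, which lies antisense to Jun, and its count is uncertain because the use of strand is not given. Pagr1a had no counts in euploid cultures and was not tested. Zfp324 passed only between the 2 trisomic genotypes (0.21, edgeR adjusted p = 0.0427).

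Ss18l1, named because of its rows and not by the rule on promoters, was at 48.7, 47.5 and 45.3 CPM in euploid, at 30.9, 32.1 and 26.4 in Ts65Dn and at 66.0, 63.4 and 62.5 in Ts65Dn;Brwd1+/-. The 3 groups did not overlap. The log2 difference to euploid was -0.66 (SE 0.08, edgeR adjusted p = 0.000218) in Ts65Dn and 0.44 (SE 0.08, adjusted p = 0.00275) in Ts65Dn;Brwd1+/-. Its exon rows, in all 3 lists, come from adult tissue, and 9 of the 10 overlapped no ATAC row. Whether these exon-bound rows reflect SMARCA2/4 binding at the gene was not tested.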

How the data were processed

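The 3 SMARCA2/4 and 3 ATAC peak lists deposited by the authors, 1 per genotype, gave for each row a fold enrichment (a linear ratio over background) and a q-value. Per the study's methods, reads were aligned to mm10 with HISAT2, unique reads were kept, duplicates were removed and peaks were called with MACS2, against inputs for ChIP-seq. The methods also state a filter on false discovery rate and fold change, which the deposited ChIP-seq lists do not follow, since they hold rows with q-values up to 1. How replicates were pooled is not given in the sources used here. RNA was deposited as raw read counts per gene, with between 17270070 and 25892802 counts in genes per library, and the rows naming no gene (37.4 to 40.0% of counts) were left out. Whether counting used the strand is not given in the sources used here.

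Overlap, lengths, Wilson 95% intervals and Spearman correlations were computed in Python 3.11.15 from 1-based coordinates. Masked bases and 32-base runs were read from GRCm38.p6 (66 sequences), exons from GENCODE. Where several rows overlapped a shared row, the highest fold enrichment was taken. Counts were tested with edgeR 4.0.16 (TMM, filterByExpr, all 9 libraries, threshold 0.05), with DESeq2 1.42.0 as an alternative, and the procedure was tested on simulated data. The members and lists were chosen with earlier results of these data known, and the 4 groups after the values had been seen.

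Rows were named by rule: the 10 with the highest lowest-of-3 fold enrichment, the 10 strongest proximal promoter rows of protein-coding genes, the 3 weakest, widest and narrowest, all runs of 3 or more, and all in the triplicated segments or in the listed genes. Some items are not reported here. For RNA, these were promoter genes and the 4 with the lowest p per contrast. Nothing in the labels places culture replicates in separate litters, so p-values measure the spread between these samples.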

Additional observations from a re-analysis of the deposited data

How the results depend on the processing

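The count of 243 shared rows was 122 with an overlap of at least 50% of the euploid row, 120 with rows over a q-value of 0.05 removed from each list before the overlap and 42 among rows of at least 100 bp in all lists. In the same order, the proximal promoter share was 5.74, 6.67 and 2.38%, and the share within 10 kb of another shared row 33.6, 20 and 35.7%. The euploid ATAC share was 31.97 and 27.5% in the first pair. Joining rows less than 1 kb apart gave 28.7, 8.53 and 50% for promoter, 10 kb and ATAC shares. Centres within 1 kb of a transcript start gave 35.4% for the promoter share. The ATAC share was 32.1% when the overlap had to cover 50% of the row and 21.8% with ATAC rows of at least 4-fold. Among rows not shared, weighting to the strata of the shared rows gave 31.7% in place of 26.3%, or 32.02% without read-collecting loci, chosen after seeing the data. Without read-collecting loci, an alternative chosen after seeing the data, ATAC and 10 kb shares were 32.8 and 15.2%, and median fold enrichments 4.34 (Ts65Dn) and 4.50 (Ts65Dn;Brwd1+/-). With q-values under 0.05 the medians were 6.55 and 6.60, and at least 100 bp gave 4.82 in Ts65Dn;Brwd1+/-. The causes were not tested.

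In RNA, leaving out 1 library at a time gave 6667 to 7894, 3707 to 5761 and 8526 to 10164 called genes for Ts65Dn against euploid, Ts65Dn;Brwd1+/- against euploid and against Ts65Dn, and 5 to 9, 3 to 6 and 9 to 13 of the promoter genes. The first of these was 5 without euploid replicate 1 or 2, and the second 3 without euploid replicate 3 or Ts65Dn;Brwd1+/- replicate 1 or 3. Counting genes with a row within 1 kb as well, chosen after seeing the data, gave 26, 14 and 32 of 46, of them 12, 10 and 19 higher. The commoner direction was thus the opposite of that among the proximal promoter genes in each comparison. Same-numbered libraries did not deviate together in every pair (correlations from -0.16 to 0.28), so the numbers were not taken as pairs. With a replicate block, 8, 5 and 12 promoter genes and 8349, 5397 and 10268 genes in all were called. The other RNA alternatives (DESeq2, its size factors, other filters, a threshold of 0.1) stayed within 1.5 times the counts given.

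Each peak list is 1 pooled sample of unknown depth, so differences in fold enrichment between genotypes have no error.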
